A study of Rattus norvegicus with 30 samples.

Results

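Mercury chloride (HgCl2) was given to rats, and 109 kidney transcripts had low levels in several of the treated animals. A transcript entered this group when its level was under 1/1.5 of the lowest vehicle library of the same time in at least 3 of the 10 HgCl2 libraries of that time, at 10 h or at 34 h. The level was given in CPM, the estimated count scaled to the same total on transcripts in every library. Its mean over all 30 libraries also had to be at least 5 CPM, and its mean in TPM, a level per length, had to be under 1000. Of 40071 transcripts, 12842 met these limits on the level, and they serve below as the transcripts of comparison. The rule for low libraries held for 118 of them. Another 9 of these were left out because they also met the mirrored rule for raised levels, 1.5 times above the highest vehicle library, which leaves 109.

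Whole kidneys from 30 rats of the outbred Sprague-Dawley stock were powdered, and their RNA was sequenced as poly-A-enriched libraries, 1 library for each rat. The 6 groups of 5 rats received saline at 1 ml/kg (vehicle), 0.25 mg/kg HgCl2 (low dose) or 0.50 mg/kg HgCl2 (high dose), and kidneys were collected at 10 or 34 h. The series' design states that the doses were chosen to produce injury of different degree. The sources used here do not give the age or sex of the animals.

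Inorganic mercury accumulates in the kidney and is best known for injuring the proximal tubule, the segment that takes back most of the filtered salt, glucose and amino acids. A damaged tubule cell can lose transcripts of its transport and metabolic functions, and it can also be shed into the urine. In RNA from a whole kidney, fewer cells of a type and less RNA per cell cannot be told apart. One gene can give several transcripts, and a read that matches more than one of them is shared out by estimation, so a transcript's level can change while that of its gene does not.

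The files do not pair the transcript identifiers with genes, and 0 of the 109 identifiers were found in the RefSeq tables used here. Functions, nephron segments, tissue markers and sequences are therefore not given, and members are described by their length, level and pattern. One member for each time is named by its Ensembl identifier.

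Library totals on transcripts were 20.2 to 39.1 M (mega) estimated counts and overlapped between all groups. At 10 h the libraries of a group carry consecutive numbers in the labels (vehicle 36 to 40, low dose 31 to 35, high dose 56 to 60), so dose and anything that followed these numbers cannot be told apart. At 34 h the low dose is the run from 46 to 50, while vehicle and high dose fall into the runs 41 to 45 and 51 to 55 together. In 4 libraries at least 50 of the 12842 transcripts lay more than 2-fold beyond all other libraries. These were replicate 2 of vehicle at 10 h (56 above, 0 below), replicate 2 of the high dose at 10 h (61 above, 21 below), and replicates 3 (72 above, 70 below) and 4 (14 above, 351 below) of the high dose at 34 h. The numbers of members, most median differences, the spread among vehicle rats and the sets are given below with and without them. Counts of low libraries by dose include them.

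The rule was met more often at 10 h than at 34 h. At 10 h 85 of 12842 transcripts (0.662%) had at least 3 low libraries, and 77 of them are members. At 34 h the count was 37 (0.288%), of which 36 are members. These counts of members were 68 and 17 without the libraries that stand apart. Among the 77 chosen at 10 h, 4 (5.19%, against 0.288% of all transcripts) were also chosen at 34 h, and these are 11.1% of the 36 (against 0.662%). This left 73 chosen at 10 h alone and 32 at 34 h alone. The mirrored rule gave similar counts, 86 transcripts (0.67%) at 10 h and 43 (0.335%) at 34 h, so low and high excursions of this size were about as frequent as each other.

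Most members were low in a minority of the treated rats. Of the 77 chosen at 10 h, 46 were under the limit in 3 of the 10 HgCl2 libraries, 20 in 4, 9 in 5 and 2 in 6, and none in 7 or more. Of the 36 chosen at 34 h, 24 were under it in 3 libraries, 6 in 4 and 6 in 5, and none in more. The median number of HgCl2 libraries above the lowest vehicle library was 5 of 10 in the members chosen at 10 h and 4 of 10 in those chosen at 34 h, against 8 and 9 over all 12842 transcripts. All HgCl2 libraries lay below all vehicle libraries in 3 of the 77 members at 10 h, against 6 of the 12842 transcripts (0.0467%), and in 1 of the 36 at 34 h, against 8 (0.0623%). The rule selected on this separation, so these counts describe the choice and are no test.

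The threshold did not fall into a gap. At 10 h the ratio of the third lowest HgCl2 library to the lowest vehicle library was 0.6665 in the member nearest to the limit and 0.6676 in the nearest transcript outside, with a median of 0.583 over the members. At 34 h these ratios were 0.645, 0.6692 and 0.567. The lowest mean level of a member was 5.03 CPM, and the highest among transcripts left out for their level alone was 4.975 CPM. Depth was ample for most members, since the lowest vehicle library held a median of 257 estimated counts at 10 h and 194 at 34 h. The limit itself corresponded to fewer than 10 counts for 2 members at 10 h and 5 at 34 h.

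The member named for 10 h, ENSRNOT00000015723, is 1192 bases long and had whole counts in every library, so its counts show no reads split with other targets. It was chosen for having the most low libraries at 10 h, 6 of 10, among members with whole counts. In vehicle at 10 h its level was 8.37, 15.9, 8.67, 9.13 and 9.67 CPM in replicates 1 to 5. In the low dose at 10 h it was 3.35, 3.99, 3.47, 5.59 and 6.71 CPM, and in the high dose 4.43, 5.28, 5.03, 10.9 and 5.84 CPM. All 5 low dose rats were below every vehicle rat, as in 0.53% of all 12842 transcripts. So were 4 of the 5 high dose rats, and replicate 4 of the high dose lay within the vehicle range. The limit of 5.58 CPM ran just under the value of replicate 4 of the low dose. Group means were 10.3 ± 3.14 CPM in vehicle, 4.62 ± 1.47 in the low dose and 6.30 ± 2.63 in the high dose (SD, n = 5 each).

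At 34 h, which entered the choice of this transcript only through the mean level and the exclusion of raised transcripts, the groups overlapped throughout. ENSRNOT00000015723 was at 4.81, 6.56, 7.11, 9.80 and 9.41 CPM in vehicle, at 10.7, 7.93, 6.52, 9.50 and 5.47 CPM in the low dose and at 9.37, 5.95, 4.83, 7.27 and 8.36 CPM in the high dose. The vehicle rats of 34 h reached down to the values of the treated rats of 10 h. The HgCl2 libraries differed from vehicle at 34 h by a log2 fold change of -0.00 ± 0.20 (SE; adjusted p = 0.997 in edgeR's quasi-likelihood test). The low dose gave 0.08 ± 0.22 (adjusted p = 0.905, edgeR) and the high dose -0.09 ± 0.24 (adjusted p = 0.952, edgeR).

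The member named for 34 h, ENSRNOT00000026186, is 1223 bases long and also had whole counts in every library. It was under its limit of 23.4 CPM in 4 of the 10 HgCl2 libraries at 34 h. In vehicle at 34 h its level was 37.0, 40.3, 35.2, 38.1 and 36.4 CPM. In the low dose it was 35.6, 22.5, 20.5, 29.8 and 45.5 CPM, and in the high dose 27.2, 30.0, 21.7, 22.9 and 47.0 CPM. The vehicle rats were tightly grouped, while the treated rats spread to both sides: 7 of the 10 were below all vehicle rats, replicate 1 of the low dose was among them, and replicate 5 of each dose was above them all. Means were 37.4 ± 1.94 CPM in vehicle, 30.8 ± 10.2 in the low dose and 29.8 ± 10.2 in the high dose (SD, n = 5 each).

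At 10 h ENSRNOT00000026186 was at 34.4, 56.9, 29.0, 38.7 and 32.5 CPM in vehicle. It was at 16.4, 22.7, 17.8, 34.4 and 30.1 CPM in the low dose and at 34.2, 35.3, 33.5, 51.0 and 38.6 CPM in the high dose. Replicates 1 to 3 of the low dose were below all other libraries of that time, and the high dose overlapped vehicle. The low dose differed from vehicle by a log2 fold change of -0.68 ± 0.24 (SE; unadjusted p = 0.0182, adjusted p = 0.551, edgeR), and the high dose by 0.02 ± 0.19 (adjusted p = 0.979, edgeR). The high dose exceeded the low dose by 0.69 ± 0.21 on the log2 scale (unadjusted p = 0.00707, adjusted p = 0.166, edgeR). None of these passed the threshold of 0.05 after adjustment over 21112 transcripts.

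**Figure D1:**
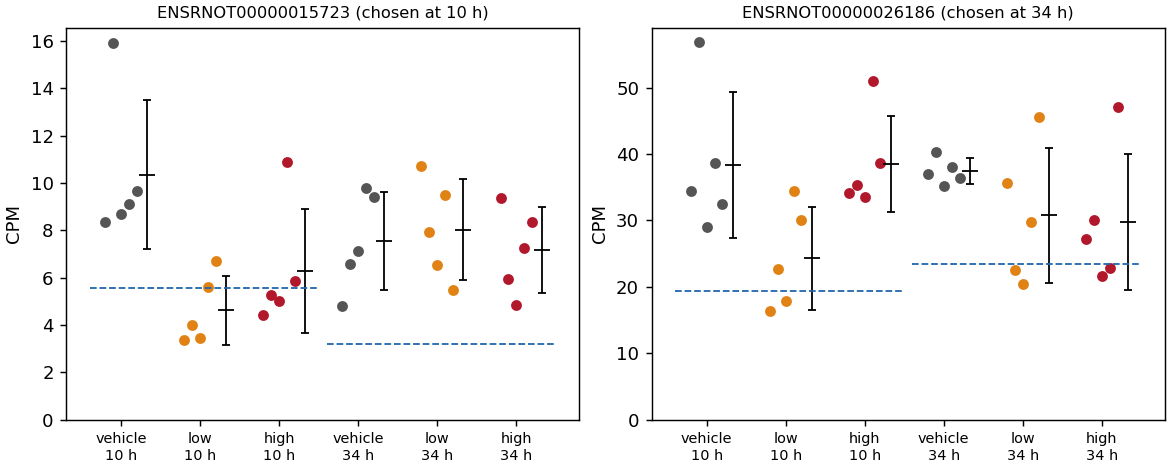
Level in CPM (vertical axis) of the 2 named members in each library, by group (horizontal axis, n = 5 rats each). Points are libraries in the order of their replicate number, black bars are the mean ± SD, and the dashed line is the limit of that time, 1/1.5 of the lowest vehicle library. For ENSRNOT00000015723 the treated libraries of 10 h sit low, at 3.35 to 10.9 CPM against 8.37 to 15.9 CPM in vehicle, and the groups overlap at 34 h. For ENSRNOT00000026186 the vehicle libraries of 34 h lie at 35.2 to 40.3 CPM and the treated ones from 20.5 to 47.0 CPM.

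The other member with 6 low libraries at 10 h, 3445 bases long and with reads shared out, had 1 low library at 34 h as well. At 10 h it was at 37.9, 41.6, 38.4, 40.5 and 44.5 CPM in vehicle, at 24.5, 20.4, 15.3, 51.3 and 62.0 CPM in the low dose and at 17.3, 16.0, 27.3, 19.4 and 26.4 CPM in the high dose. All high dose rats were below all vehicle rats (as in 2.38% of all 12842 transcripts), and the low dose rats lay on both sides of them. At 34 h it was at 55.7, 39.7, 51.8, 36.9 and 43.2 CPM in vehicle, at 30.6, 34.0, 36.8, 29.0 and 25.3 CPM in the low dose and at 36.5, 36.5, 16.0, 47.4 and 30.9 CPM in the high dose. There 9 of the 10 treated rats were below all vehicle rats, 1 of them under the limit of 24.6 CPM. The difference of HgCl2 from vehicle at 34 h was -0.50 ± 0.20 on the log2 scale (SE; unadjusted p = 0.0248, adjusted p = 0.446, edgeR) and did not pass the test.

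The 4 members whose HgCl2 and vehicle libraries did not overlap were few and their gaps narrow. A member of 1556 bases was at 9.98 to 10.3 CPM in vehicle at 10 h, at 4.49 to 8.05 CPM in the low dose and at 5.39 to 9.61 CPM in the high dose. One of 762 bases was at 10.2 to 13.1 CPM in vehicle, at 7.14 to 9.90 CPM in the low dose and at 3.47 to 7.31 CPM in the high dose. One of 1864 bases was at 68.6 to 143 CPM in vehicle, at 40.3 to 62.2 CPM in the low dose and at 30.9 to 63.4 CPM in the high dose. In each the highest HgCl2 library came within 10% of the lowest vehicle library, at 0.963, 0.973 and 0.924 of its level.

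At 34 h the member without overlap was also the one with the most counts of all 109, a transcript of 3851 bases with a mean of 969 CPM (305 TPM). It was at 1430, 1270, 1420, 1240 and 1300 CPM in vehicle, at 963, 926, 1160, 460 and 1150 CPM in the low dose and at 1140, 941, 454, 1120 and 476 CPM in the high dose. In 3 treated rats the level was 454 to 476 CPM, and in the other 7 it ran from 926 to 1160 CPM, the highest being 0.938 of the lowest vehicle library. At 10 h, the time that did not choose it, its groups overlapped, with 731 to 1270 CPM in vehicle, 706 to 1270 CPM in the low dose and 449 to 1070 CPM in the high dose (HgCl2 against vehicle, log2 fold change -0.24 ± 0.19, adjusted p = 0.885, edgeR).

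The low levels came from some rats more than from others. At 10 h replicate 2 of the high dose was under the limit for 53 of the 77 members, replicate 4 for 41 and replicates 5, 1 and 3 for 26, 22 and 18. In the low dose, replicates 1 to 5 were under it for 34, 19, 28, 17 and 17. The rats with the most low members also had many low transcripts among all 12842: 528 (4.11%) in replicate 2 of the high dose and 235 (1.83%) in replicate 4, against 48 to 92 in the other 8 libraries. Replicate 2 of the high dose also had 634 transcripts above the upper limit and replicate 4 had 58, and their medians over all transcripts lay at -0.00 and 0.01 of the vehicle mean in log2(CPM + 0.5).

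At 34 h the members were spread more evenly over the treated rats, with 9, 13, 10, 16 and 7 of 36 under the limit in low dose replicates 1 to 5 and 14, 15, 19, 14 and 9 in the high dose. The share among all transcripts was less even: 347 (2.70%) in replicate 3 and 1147 (8.93%) in replicate 4 of the high dose, against 18 to 68 elsewhere. Replicate 4 of the high dose, with the most low transcripts among the 12842, thus held no more of the low members than replicate 1.

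**Figure D2:**
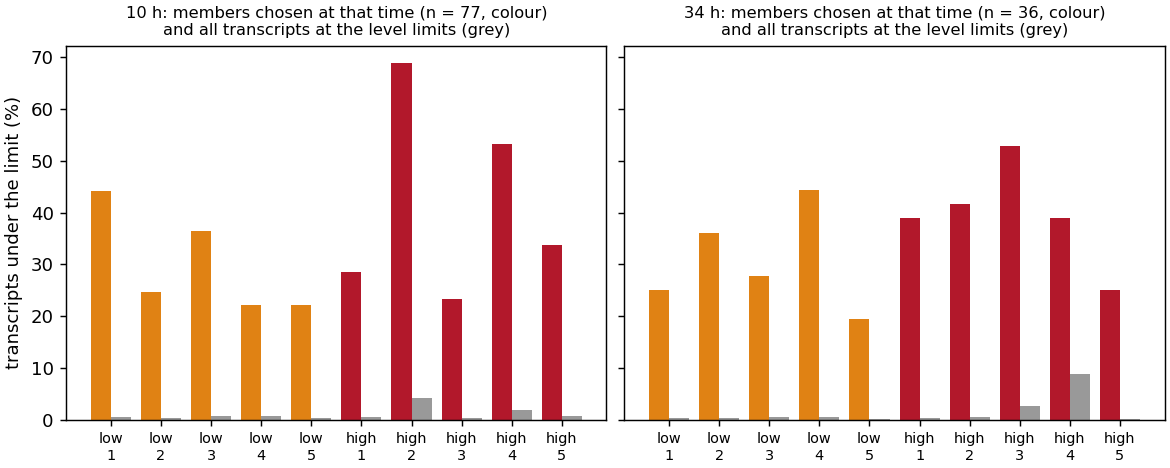
Share of transcripts under the limit (vertical axis, percent) in each HgCl2 library (horizontal axis, dose and replicate) at 10 h (left) and 34 h (right). Coloured bars are the members chosen at that time (orange low dose, red high dose), and grey bars all 12842 transcripts at the level limits. At 10 h the bars of high dose replicates 2 and 4 stand highest, at 68.8% and 53.2%, and at 34 h those of low dose replicate 4 (44.4%) and high dose replicate 3 (52.8%).

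Both doses contributed to most members. At 10 h 67 of the 77 members had low libraries at both doses, 8 at the high dose alone and 2 at the low dose alone. With all libraries included, the high dose supplied more low libraries than the low dose in 47 members and fewer in 25. High dose replicates 2, which stands apart, and 4 were under the limit for 53 and 41 members. The other high dose replicates were under it for 18 to 26, and the low dose replicates for 17 to 34. The median difference from vehicle over the 77 members, on the scale of log2(CPM + 0.5), was -0.46 at the low dose and -0.70 at the high dose, where the medians over all 12842 transcripts were 0.01 and -0.00. Without the libraries that stand apart they were -0.43 and -0.57. These medians were selected for and describe the size of the shift only.

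At 34 h 31 of the 36 members had low libraries at both doses, 4 at the high dose alone and 1 at the low dose alone. The rule favours sets of both doses here too. The high dose supplied more in 19 and fewer in 13, with its replicates 3 and 4, which stand apart, included. The median differences on the same scale were -0.51 at the low dose and -0.61 at the high dose, and -0.51 and -0.56 without the libraries that stand apart. Within the runs of library numbers that hold both high dose and vehicle, the median difference of the high dose was -0.52 in the run 41 to 45 (2 high dose, 3 vehicle; below 0 in 35 of 36) and -0.74 in the run 51 to 55 (3 and 2; below 0 in 32 of 36). All transcripts had medians of 0.01 and 0.02 there. Without the libraries that stand apart, 1 high dose library was left in the run 51 to 55, and its median difference was -0.05, below 0 in 19 of 36. The libraries of these runs also chose the members, so the values are a description.

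Low libraries combined in many ways. The commonest exact set of low libraries at 10 h was low dose replicates 1 and 3 with high dose replicate 2, in 6 members, followed by the same set with low dose replicate 2 added, in 5. At 34 h no exact set of libraries held more than 3 members.

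Members were grouped by how their log2 levels deviated from their own group means over the 30 libraries (average linkage, correlation of at least 0.5, at least 5 members). This gave 7 sets with 52 members in all and left 57 members in none. Over all pairs of members the median correlation was 0.03, and 6.59% of pairs were above 0.5, against 0.05 and 8.03% over all 12842 transcripts. Pairs of members were thus not above 0.5 more often than pairs of other transcripts. The sets are described below as patterns found in the same libraries that chose the members. Points that share a library share its depth and composition.

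The first set held 12 members, 9 chosen at 10 h and 3 at 34 h, of which 7 had whole counts. Their median difference from the vehicle mean, in log2(CPM + 0.5), was -0.81, -0.67 and -0.75 in low dose replicates 1 to 3 at 10 h but 0.01 and 0.00 in replicates 4 and 5. In the high dose at 10 h it was -0.98 in replicate 2 and between -0.11 and 0.35 in the others. At 34 h it was -1.40 in high dose replicate 3, where all 12 members were under the limit, and -0.54 in replicate 4. At both times individual rats were low while others of the same dose were near the vehicle level. Without the libraries that stand apart the median difference of the high dose from vehicle went from -0.15 to 0.06 at 10 h and from -0.46 to 0.00 at 34 h, and that of the low dose at 10 h from -0.45 to -0.46.

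The member of this set with the most counts, 2526 bases long with whole counts, shows it in its levels. It was at 530, 549, 541, 503 and 540 CPM in vehicle at 10 h, at 312, 336, 318, 520 and 544 CPM in the low dose and at 548, 245, 522, 666 and 516 CPM in the high dose. The low dose split into 3 rats at 312 to 336 CPM and 2 at the vehicle level, with no rat between them. At 34 h vehicle was at 476 to 525 CPM and the low dose at 434 to 578 CPM, and the high dose was at 420, 516, 217, 483 and 587 CPM, again with a single low rat.

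The second set held 11 members, all chosen at 10 h and none with whole counts. At 10 h its medians were -1.14, -1.80 and -1.93 in high dose replicates 1, 4 and 5, and -1.12 in low dose replicate 4, where 7, 11, 9 and 7 members were under the limit. In the remaining HgCl2 libraries of 10 h they were between -0.10 and 0.68. At 34 h the medians of all 10 HgCl2 libraries were above 0, from 0.25 to 1.02, and vehicle replicate 4 was at -1.01. The high dose at 10 h had a median difference of -0.92, and of -1.51 without the libraries that stand apart. The member of this set with the most counts, 8277 bases long, gave a log2 fold change of 0.43 ± 0.17 (SE) between HgCl2 and vehicle at 34 h (unadjusted p = 0.0193, adjusted p = 0.434, edgeR), so the higher level at 34 h did not pass the test.

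The third set was the tightest by lowest correlation, with 7 members, all chosen at 10 h, and correlations of 0.77 to 0.94. Its medians at 10 h were -2.20 in low dose replicate 5 and -2.24, -1.36, -1.73 and -1.09 in high dose replicates 2 to 5. High dose replicate 1 was at -0.01, and vehicle replicate 4 was at 1.36 above the vehicle mean. The median difference of the high dose was -1.35, and -1.04 without the libraries that stand apart. Its member with the most counts, 1586 bases long with whole counts, was at 83.3, 254, 53.0, 336 and 101 CPM in vehicle at 10 h. It was at 50.5, 106, 90.4, 56.3 and 12.2 CPM in the low dose and at 116, 9.99, 37.9, 27.8 and 46.5 CPM in the high dose. The vehicle rats themselves differed by over 6-fold, and 6 of the 10 treated rats were below their range.

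The fourth and the fifth set held 6 members each and the sixth 5. The fourth, all of it chosen at 10 h, was lowest in high dose replicate 2 (-1.60, all 6 under the limit) and at -0.79 in high dose replicate 1 and -0.72, -0.86 and -0.68 in low dose replicates 1 to 3. The fifth, with 4 members chosen at 34 h and 2 at 10 h, was at -0.98 and -1.67 in high dose replicates 3 and 4 at 34 h, and all 6 were under the limit in the latter. At 10 h it was at -0.90 in high dose replicate 2, with 3 members under the limit. The sixth, all chosen at 10 h, was at -1.12, -0.92 and -0.74 in high dose replicates 2, 4 and 5 and at -0.68 and -0.53 in low dose replicates 1 and 2. Without the libraries that stand apart the median difference of the high dose went from -0.71 to -0.45 in the fourth set and from -0.58 to -0.43 in the sixth, both at 10 h, and from -0.60 to -0.08 at 34 h in the fifth.

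In the fourth set the member with the most counts, 1336 bases long, was at 134, 199, 123, 129 and 144 CPM in vehicle at 10 h. It was at 76.9, 71.3, 98.8, 144 and 85.6 CPM in the low dose and at 80.1, 46.2, 87.4, 124 and 124 CPM in the high dose. Only low dose replicate 4 and high dose replicates 4 and 5 reached the vehicle range. At 34 h its groups overlapped, at 88.7 to 144 CPM in vehicle, 91.1 to 114 CPM in the low dose and 90.5 to 137 CPM in the high dose (HgCl2 against vehicle, log2 fold change -0.17 ± 0.12, adjusted p = 0.661, edgeR).

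In the fifth set that member, 6097 bases long with whole counts, was at 64.2, 68.7, 63.7, 62.4 and 85.3 CPM in vehicle at 34 h. It was at 72.4, 57.9, 39.7, 47.9 and 77.6 CPM in the low dose and at 51.4, 69.4, 29.3, 24.2 and 79.4 CPM in the high dose. Each dose thus held 2 rats within the vehicle range and 3 below it. At 10 h, the time that did not choose it, it was at 53.2 to 65.3 CPM in vehicle, 37.6 to 71.7 CPM in the low dose and 34.7 to 71.4 CPM in the high dose, with treated rats on both sides of the vehicle range (log2 fold change -0.14 ± 0.16, adjusted p = 0.934, edgeR).

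In the sixth set it was 3326 bases long and at 175, 207, 180, 180 and 184 CPM in vehicle at 10 h. It was at 115, 183, 165, 165 and 208 CPM in the low dose and at 139, 91.2, 180, 97.2 and 130 CPM in the high dose. In the high dose 4 of 5 rats were below all vehicle rats, and in the low dose 3 of 5 were. At 34 h it was at 135 to 174 CPM in vehicle, 179 to 217 CPM in the low dose and 108 to 251 CPM in the high dose. The low dose rats of 34 h were all above all vehicle rats, and the difference of all HgCl2 libraries from vehicle did not pass the test (log2 fold change 0.19 ± 0.15, adjusted p = 0.701, edgeR).

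The seventh set, of 5 members with 2 chosen at 10 h and 3 at 34 h, was marked by high libraries. Its median was 6.10 above the vehicle mean of log2 levels in vehicle replicate 2 at 10 h, 4.51 above in low dose replicate 4 and 3.99 above in high dose replicate 5 at 34 h. The other vehicle libraries of 10 h were at -0.94 to -1.45, because their mean includes the high one. Every difference from the vehicle mean at 10 h in this set includes that rat. The 3 members chosen at 34 h had means of 43.1, 39.6 and 30.7 CPM in vehicle at 10 h. In the other groups their means were 0.507 to 8.31 CPM, so high libraries brought them over the limit of 5 CPM. At 34 h, the time that chose them, their vehicle means were 0.761, 0.753 and 0.507 CPM. The means of both doses were higher there, so these members were low in several treated rats but not on average. The median differences of the low and the high dose were -0.64 and -0.95 at 10 h, and 0.91 and 0.50 without the libraries that stand apart.

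The member of 1864 bases without overlap at 10 h, described above, was the one with the most counts in this set. At 34 h it was at 61.3, 73.6, 34.8, 54.8 and 43.8 CPM in vehicle, at 67.1, 48.6, 25.4, 49.4 and 37.7 CPM in the low dose and at 54.4, 53.5, 37.9, 47.7 and 122 CPM in the high dose. Its separation at 10 h did not recur there (log2 fold change -0.00 ± 0.28, adjusted p = 0.998, edgeR).

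**Figure D3:**
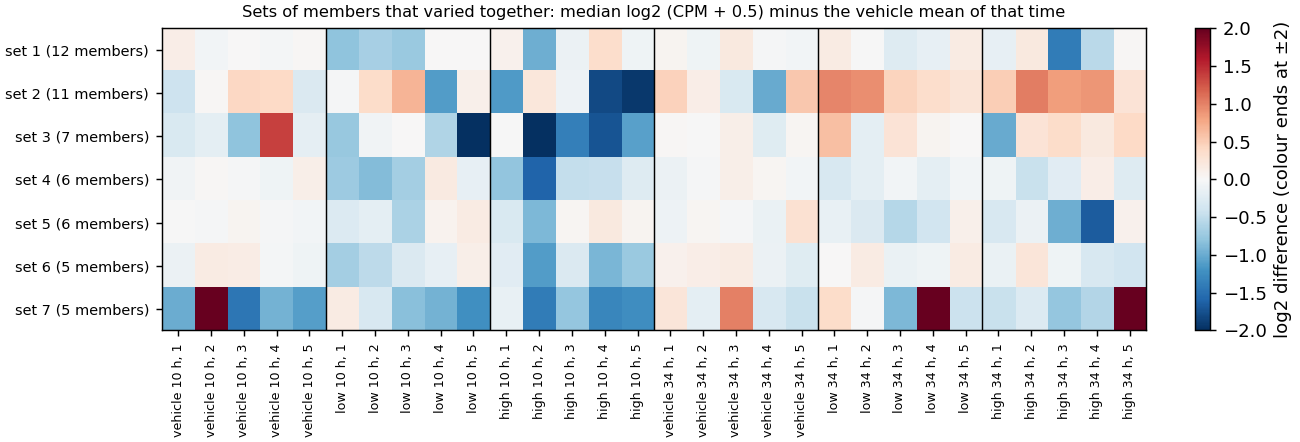
Median over the members of each of the 7 sets (vertical axis) of the difference in log2(CPM + 0.5) from the vehicle mean of that time, in each of the 30 libraries (horizontal axis, groups divided by lines). Blue is below and red above the vehicle mean, and colours end at ±2. In the first set low dose replicates 1 to 3 and high dose replicate 2 at 10 h and high dose replicate 3 at 34 h are blue, and in the seventh set 3 libraries are deep red (6.10, 4.51 and 3.99).

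At the other time the members' medians were near 0, though low libraries were more frequent than in all transcripts. The 73 members chosen at 10 h alone had a median HgCl2 difference of -0.52 at 10 h and 0.03 at 34 h in log2(CPM + 0.5). At 34 h 33 of the 73 (45.2%) were below 0, where 49.4% of all 12842 transcripts were. The 32 chosen at 34 h alone had -0.61 at 34 h and -0.06 at 10 h, and 17 of 32 (53.1%) were below 0 at 10 h, where 48.3% of all transcripts were. Without the libraries that stand apart the medians at the other time were 0.02 and -0.01. Of the 73, 31 had 1 low library at 34 h and 2 had 2, so that 33 of them had any (45.2%, against 12.9% of all transcripts). This was 17 of the 73 without the libraries that stand apart (23.3%, against 2.13%). Of the 32, 13 had 1 low library at 10 h and 1 had 2, together 14 (43.8%, against 7.68%), and without the libraries that stand apart 9 had any (28.1%, against 5.07%). Members with 3 or more at both times are the 4 chosen at both and were left out of these counts.

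edgeR's test called 0 of the 109 members between HgCl2 and vehicle, at the time that chose them or at the other. The rule used the libraries of the choosing time, so calls there are a description and no test. For single doses against vehicle at 10 h, DESeq2 called 6 of the 77 at the low dose (0.403% of all with an adjusted p). At the high dose it called 16 of them (6.26%). At 34 h it called 4 of the 36 at the low dose (4.41%) and 0 at the high dose (0.196%). All those called were lower. At the other time other rats gave the libraries. That time still entered the choice through the mean level over 30 libraries, the exclusion of raised transcripts and the setting aside of the 4 members chosen at both times. Between HgCl2 and vehicle at 34 h, 0 of the 73 members chosen at 10 h alone were called by edgeR at an adjusted p under 0.05, where 0 of 21112 transcripts (0%) were called. Their smallest adjusted p was 0.412. At an unadjusted p under 0.05, 4 of the 73 were lower (against 4.21% of all tested) and 5 of the 73 higher (against 5.7% of all tested). The median log2 fold change was 0.05, with a range of -0.82 to 1.56, and 30 of 73 were below 0. DESeq2 also called 0 of the members (74 of 21066 transcripts, 0.351%), as did limma's voom with quality weights (0%).

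Between HgCl2 and vehicle at 10 h, 0 of the 32 members chosen at 34 h alone were called by edgeR, against 0 of 21112 transcripts (0%), with a smallest adjusted p of 0.459. At an unadjusted p under 0.05, 4 of the 32 were lower (against 3.7% of all tested) and 0 of the 32 higher (against 3.01% of all tested). The median log2 fold change was -0.04, and 16 of the 32 were below 0. The range of -5.12 to 0.56 reached so low through 3 members with fold changes of -5.12, -5.05 and -4.62, the 3 members of the seventh set chosen at 34 h, for which vehicle replicate 2 stood high. In log2(CPM + 0.5) these 3 members averaged 0.53 to 0.58 above vehicle at 34 h, the time that chose them. On this scale the lowest difference at 10 h among the 32 was -0.44 without the libraries that stand apart. DESeq2 called 0 here as well (15 of 20899 transcripts, 0.0718%), with no adjusted p for 3 of the 32, and so did voom (0%).

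The doses taken singly gave the same count. For the 32 members tested at 10 h, edgeR called 0 for the low dose against vehicle (0% of all tested), 0 for the high dose against vehicle (1 of all tested, 0.00474%) and 0 for the high against the low dose (0%). At an unadjusted p under 0.05 the low dose had 6 of the 32 lower (against 4.69% of all tested) and 0 of the 32 higher (against 4.33%). The high dose had 3 lower (6.76%) and 2 higher (7.29%), and the high against the low dose 0 lower (8.15%) and 5 higher (9.06%). Medians of the log2 fold change were -0.26, 0.09 and 0.30. Both doses share the vehicle libraries. DESeq2 called 0 for the low dose (0.403% of all with an adjusted p), 0 for the high dose (6.26%) and 3 between the doses (7.5%), with no adjusted p for 3 of the 32 in each. Voom called 0 (0%), 0 (0.00474%) and 5 (11.4%), so its call between the doses covered 2412 of all transcripts.

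For the 73 members tested at 34 h, edgeR called 0 for the low dose against vehicle (7 of all tested, 0.0332%), 0 for the high dose against vehicle (0%) and 0 for the high against the low dose (0%). At an unadjusted p under 0.05 the low dose had 4 of the 73 lower (against 7.39% of all tested) and 7 of the 73 higher (against 6.9%). The high dose had 2 lower (2.08%) and 4 higher (3.43%), and 4 were lower (1.29%) and 2 higher (1.92%) in the high than in the low dose. Medians of the log2 fold change were 0.05, -0.09 and -0.15. DESeq2 called 3 for the low dose (4.41% of all with an adjusted p), where 37 of the 73 members had no adjusted p. It called 2 for the high dose (0.196%) and 0 between the doses (0.0192%). Voom called 0 in each (0.00474%, 0% and 0%).

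**Figure D4:**
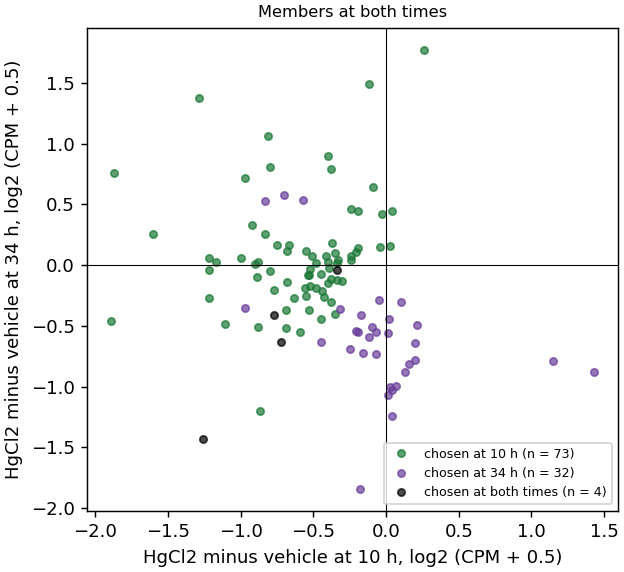
Difference between HgCl2 and vehicle in log2(CPM + 0.5) at 10 h (horizontal axis) and at 34 h (vertical axis), 1 point for each of the 109 members. Green points were chosen at 10 h alone (n = 73), purple at 34 h alone (n = 32) and black at both times (n = 4). Of the green points 70 lie left of 0, and their median on the vertical axis is 0.03, while 29 of the purple points lie below 0, and their median on the horizontal axis is -0.06.

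The 4 members chosen at both times were of 2 kinds. A member of 2702 bases was at 25.7 to 47.2 CPM in vehicle, 13.5 to 31.8 in the low dose and 12.6 to 30.7 in the high dose at 10 h, and at 23.6 to 37.7, 13.6 to 21.1 and 9.84 to 37.2 CPM at 34 h. One of 2013 bases was at 6.90 to 12.8 CPM in vehicle, 3.42 to 7.57 in the low dose and 3.21 to 5.93 in the high dose at 10 h, and at 6 to 10.4, 4.73 to 8.96 and 2.95 to 11.2 CPM at 34 h. In both, the treated rats of the 2 doses together reached below the vehicle rats at each time and overlapped them. Singly, the low dose at 34 h lay wholly below vehicle in the member of 2702 bases, as in 1.11% of all 12842 transcripts. The high dose at 10 h did so in the member of 2013 bases, as in 2.38% of all transcripts. These libraries also chose the members.

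The other two ran almost from absence to the vehicle level within a group. One of 789 bases spanned 9.13 to 23.0 CPM in vehicle, 0.741 to 23.1 in the low dose and 0 to 28.5 in the high dose at 10 h. At 34 h these ranges were 6.49 to 25.6, 0.194 to 21.4 and 1.30 to 29.4 CPM. One of 1646 bases spanned 0.620 to 18.2 CPM even in vehicle at 10 h and 0.363 to 20.3 CPM at 34 h. Its medians at 34 h were 0.935 CPM in vehicle, 9.26 in the low dose and 1.71 in the high dose. Both treated medians thus lay above the vehicle median there. Its high dose libraries spanned 0.0396 to 35.3 CPM at 10 h, and the lowest of them held 1.32 estimated counts.

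The members also varied more among vehicle rats of the time that did not choose them. The SD of log2(CPM + 0.5) there had a median of 0.292 in the 73 members chosen at 10 h alone, measured at 34 h, against 0.136 over all 12842 transcripts, and no vehicle library of 34 h stands apart. For the 32 chosen at 34 h alone it was 0.491 at 10 h, against 0.126, and without vehicle replicate 2 of 10 h it was 0.45, against 0.121. Vehicle rats of that time could themselves be under the members' limit. At least 1 was in 28 of the 73 (38.4%, against 2.24% of all transcripts), and 3 or more were in 0 of them (0.0545%). At least 1 was in 18 of the 32 (56.2%, against 160 of the 12842 transcripts), or in 14 of the 32 (43.8%) without vehicle replicate 2, and 3 or more were in 1 of the 32. The mean vehicle level was lower at 34 h than at 10 h in members chosen at 10 h alone (median difference -0.26) and higher in those chosen at 34 h alone (0.24), where the median over all transcripts was -0.00. One vehicle group of each such difference is the one the rule used. The limit in the counts of vehicle rats under it came from that group too, so these counts and differences are a description.

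Some members fell into separate levels. Sorted over the 30 libraries, 16 of the 109 members (14.7%) had a step of more than 2-fold in log2(CPM + 0.5) with at least 3 libraries on each side, against 100 of 12842 transcripts (0.779%). In the libraries of the time that did not choose them, the step was present in 4 of 73 (5.48%, against 0.405% of all transcripts) and 1 of 32 (3.12%, against 0.514%). An HgCl2 library with 3 estimated counts or fewer, too few to tell from absence at this depth, was found in 13 of the 77 members at 10 h and 9 of the 36 at 34 h, against 0.452% and 0.467% of all transcripts. The rule selected for low HgCl2 libraries at these times. These 2 counts and the 14.7% over all 30 libraries therefore describe the choice and are no test.

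One such member was 803 bases long, chosen at 34 h with 5 libraries under its limit and with the highest mean TPM of the members, 951. In 3 libraries it was at 32.5, 34.9 and 36.9 CPM, namely high dose replicate 4 at 10 h, high dose replicate 2 at 34 h and low dose replicate 1 at 34 h. In 6 libraries it was at 313 to 358 CPM, and in the other 21 at 473 to 675 CPM. The step between the lowest level and the next was 8.47-fold and that between the upper ones 1.32-fold. The middle level held 3 vehicle rats of 10 h, so that vehicle at 10 h was at 632, 356, 592, 313 and 315 CPM, and 3 high dose rats of 34 h. All 5 vehicle rats of 34 h were at the upper level, at 550 to 668 CPM, and against these the treated rats of 34 h counted as low.

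**Figure D5:**
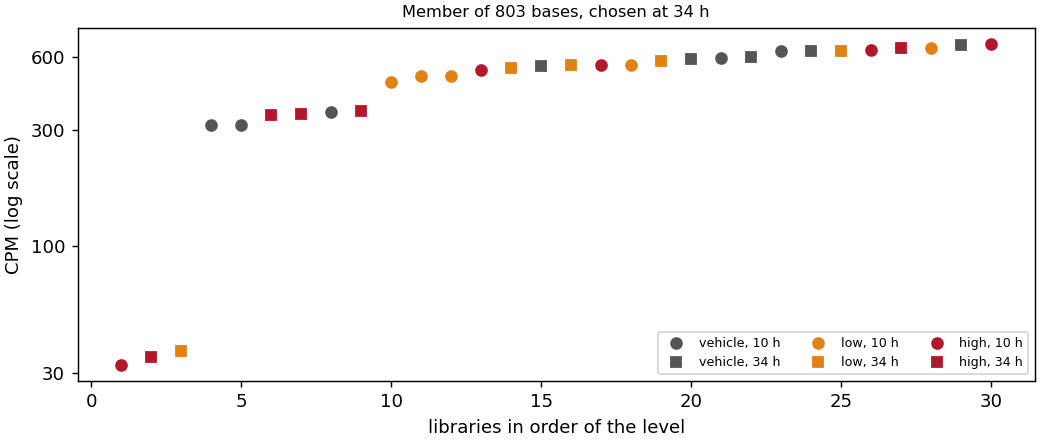
Level in CPM (vertical axis, log scale) of the member of 803 bases in the 30 libraries, sorted by level (horizontal axis). Circles are 10 h and squares 34 h, with grey for vehicle, orange for the low and red for the high dose. The 3 lowest libraries are at 32.5 to 36.9 CPM, 6 at 313 to 358 CPM and 21 at 473 to 675 CPM, and vehicle libraries of 10 h lie in both upper levels.

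Members were also less abundant than other transcripts and more often shared reads. Their median mean level was 7.32 TPM, against 14.1 TPM over the 12842 transcripts, and 11.6 against 25.8 CPM. Whole counts in every library were present in 26 of 109 (23.9%), against 43.2% of all transcripts, so in the other 83 members some reads were divided with other targets by estimation. Their median length of 2418 bases was close to the 2356 bases of all transcripts. Low level, shared reads and variability among rats moved together with membership, and their part in the low levels was not tested.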

How the data were processed

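Per the file headers, each of the 30 deposited files gives, for 65166 targets, an estimated count and a TPM value beside the target's full and effective length. The deposited estimated counts and TPM come from kallisto 0.42.2 with Rnor_6.0, per the submitters' processing notes; the annotation release and options were not given in any source used here. The 25095 targets that are genomic intervals (5.82 to 9.23% of estimated counts) were left out. CPM was computed on the 40071 transcripts. For tests, estimated counts were rounded, kept by filterByExpr (21112 transcripts, all 109 members) and fitted with edgeR 4.0.16 (quasi-likelihood, TMM, Benjamini-Hochberg adjustment over all kept, threshold 0.05), a procedure also tested on simulated data: drawn for HgCl2 against vehicle at 10 h over 21112 transcripts, it called 91 of 100 transcripts changed 2-fold, 100 of 100 changed 4-fold and 14 unchanged ones. The rate of calls was not tested for transcripts low in only some of the treated rats, as members were. Among HgCl2 libraries of 10 h the SD of log2(CPM + 0.5) had a median of 0.636 in members chosen at 10 h. Over the 12842 transcripts it was 0.199. DESeq2 1.42.0, limma 3.58.1 voom, other size factors, no filter and leaving out libraries were alternatives, in R 4.3.3 and Python 3.11.15. The SE of a log2 fold change was derived from its size and edgeR's F statistic. Replicates are separate rats and were numbered in accession order. Reads carry no molecular identifiers. The p-values rest on the spread between libraries, each from a separate rat. The members, lists and comparisons were chosen with earlier results of these data known. The named members are, for each time, the one with whole counts (within 1e-06) and the most low libraries, ties going to the higher mean CPM. The 7 sets, the 4 libraries left out together and the other singled members were chosen after their values were seen. Marker and gene lists could not be matched and were not run.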

Additional observations from a re-analysis of the deposited data

Results flagged for a closer look

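In 12 of the members described above, each of the 6 groups was searched for a library whose gap to the next exceeded 0.71 of the group's range, which chance gives in about 1 in 20 groups. It was found in 9 of 72 groups, 7 of them at the time that chose the member. Members were chosen for extreme libraries, so the rate by chance is no yardstick for these. Vehicle replicate 2 at 10 h was high in 4 of them: ENSRNOT00000015723 (15.9 CPM, others 8.37 to 9.67) and the members of 1336 bases (199 CPM, others 123 to 144), 3326 bases (207 CPM, others 175 to 184) and 1864 bases (143 CPM, others 68.6 to 77.1). This library is one of those that stand apart. ENSRNOT00000015723 was also high in high dose replicate 4 at 10 h (10.9 CPM, others 4.43 to 5.84). The member of 1864 bases was high in high dose replicate 5 at 34 h (122 CPM, others 37.9 to 54.4), and the member of 6097 bases in vehicle replicate 5 at 34 h (85.3 CPM, others 62.4 to 68.7). The member of 803 bases was low in high dose replicate 4 at 10 h (32.5 CPM, others 530 to 675) and in low dose replicate 1 at 34 h (36.9 CPM, others 537 to 636).

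The member of 8277 bases lay on opposite sides of the vehicle mean at the 2 times in the high dose. At 10 h all 5 high dose libraries (8.93 to 19.5 CPM) were below the vehicle mean of 21.2 CPM, and at 34 h all 5 (18.8 to 31.0 CPM) were above the vehicle mean of 17.6 CPM, with a difference of means of 7.44 CPM. The difference between the times was not tested, and 10 h was the time that chose this member.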

How the results depend on the processing

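The number of members followed the thresholds of the rule. From 109 it went to 29 with a factor of 2, 434 with a factor midway from 1 to 1.5, 44 and 18 with at least 4 and 5 libraries, 324 and 41 with a mean of at least 1 and 20 CPM, and 26 with whole counts only. TMM-normalized CPM gave 112 members (100 shared with the 109) and the deposited TPM 113 (103 shared). Leaving out 1 library at a time gave 83 to 158 members. Members chosen at 10 h went from 77 to 49 without high dose replicate 2 and to 125 without vehicle replicate 1, and those chosen at 34 h from 36 to 23 without high dose replicate 3 and to 63 without vehicle replicate 5. Without vehicle libraries the limit can only rise or stay. Without the 4 libraries that stand apart 83 remained, 63 of them shared, with 68 chosen at 10 h and 17 at 34 h.

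Of 129 alternative fits over 8 comparisons, 125 called 0 of the members chosen at the other time, as did every fit that left out 1 library. The exceptions were DESeq2 for the low dose against vehicle at 34 h (3 members, 2 of them lower, with 443 calls over all transcripts), for the high dose against vehicle at 34 h (2, 1 lower, with 41) and for the high against the low dose at 10 h (3, 0 lower, with 1120), and voom for the last of these (5, 0 lower, with 2412). The cause was not tested. No paired analysis was possible because the replicate numbers were given in accession order and tie no rats across groups. The limit corresponded to fewer than 50 counts for 7 members at 10 h and 5 at 34 h. How depth affected membership was not tested.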
